A study of Mus musculus with 32 samples.

Results

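The data described here are the transcript levels of a mouse macrophage line carrying the wild-type CSF-1 receptor, compared between 60 and 20 min after CSF-1 was given back to starved cells. The comparison rests on 4 of the 32 arrays of the series: 2 arrays at 60 min and 2 at 20 min, paired by the series number (I or II) that the sample titles give. In this interval several genes induced by 20 min (Fos, Btg2, Ier2, Egr1) declined, while others such as Nr4a1 and Tnf showed no significant change. A further set (Fosl1, Nab2, Dusp4, Vcl, Plaur) came up, of which Fosl1 and Plaur were already above their starved values at 20 min. The changes of Egr1, Dusp4 and Fosl1 lost significance when certain single arrays were left out.

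CSF-1 is the main survival and growth factor of macrophages and signals through CSF-1R, a receptor tyrosine kinase. Its activation of the MAP kinase pathway switches on immediate early genes, whose transcription needs no newly made protein and whose mRNAs are mostly short-lived. Delayed early genes follow, among them phosphatases, corepressors and adaptor proteins that restrain the same pathway.

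Total RNA was hybridised to Affymetrix Mouse Gene 1.0 ST arrays, 1 array per RNA preparation. The lines have a background written M-/- in the labels and are named after the receptor they express. The WT line carries the receptor with the tyrosine that the receptor of the Y721F line, used below for comparison, lacks, so receptor and cell line cannot be told apart between them. Cells were cultured in medium with human CSF-1 at 120 ng/mL, starved of CSF-1 overnight, and stimulated with CSF-1 for 0, 20, 60 or 180 min. A separate set of WT arrays holds cells starved of CSF-1 (UR in the labels) or grown in it continuously (CONST). Each group has 2 arrays, described as biological replicates in the series text, and whether a line is 1 clone is not given in the sources used here. If the preparations were not independent cultures, the p-values below measure technical spread.

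Values are log2 signals. Array medians lay between 5.97 and 6.22, and Pearson's r over genes was 0.990 between the 2 WT arrays at 20 min and 0.986 between those at 60 min, with genes not independent of each other. The macrophage marker list (9 of 10 genes measured) had a mean signal of 11.13 to 12.04 per time course array, and Csf1r itself stood at 13.26 and 13.22 at 20 min and at 13.32 and 13.08 at 60 min. The dendritic cell list (7 of 7 measured) lay at 5.29 to 5.52, the granulocyte and mast cell list (9 of 9) at 4.90 to 5.11, the fibroblast list (6 of 6) at 6.16 to 6.90, the lymphocyte list (5 of 6) at 4.34 to 4.61 and the osteoclast list (6 of 6) at 7.94 to 8.91. The osteoclast-linked Ctsk and Acp5, which macrophages can also express, had mean signals of 12.87 and 9.05 at 20 min. No gene of these lists was called. In bulk RNA, fewer cells of a kind and less RNA per cell cannot be told apart.

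Of 19938 genes, 73 rose and 33 fell between 20 and 60 min. These calls (limma, adjusted p under 0.05 over all genes and a fold above 1.5) make up 0.366% and 0.166% of the genes tested, 0.532% together. The median log2 difference was 0.87 among the rises and -1.39 among the falls, against -0.005 over all genes. In 69 of the 73 rises and 32 of the 33 falls, the 60 min arrays did not overlap the 20 min arrays. Over all genes, non-overlap was found for 13.6% in the upward and 15.3% in the downward direction. The calls were made on these same arrays, so this separation and the series medians that follow are partly fixed by that choice. The median of the rises was 0.89 in series I and 0.79 in series II, and that of the falls was -1.34 and -1.20. Series I nevertheless moved more across the array: 544 genes were past 1.5-fold upward and 382 downward there, against 178 and 132 in series II, and 118 and 67 passed in both.

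**Figure D1:**
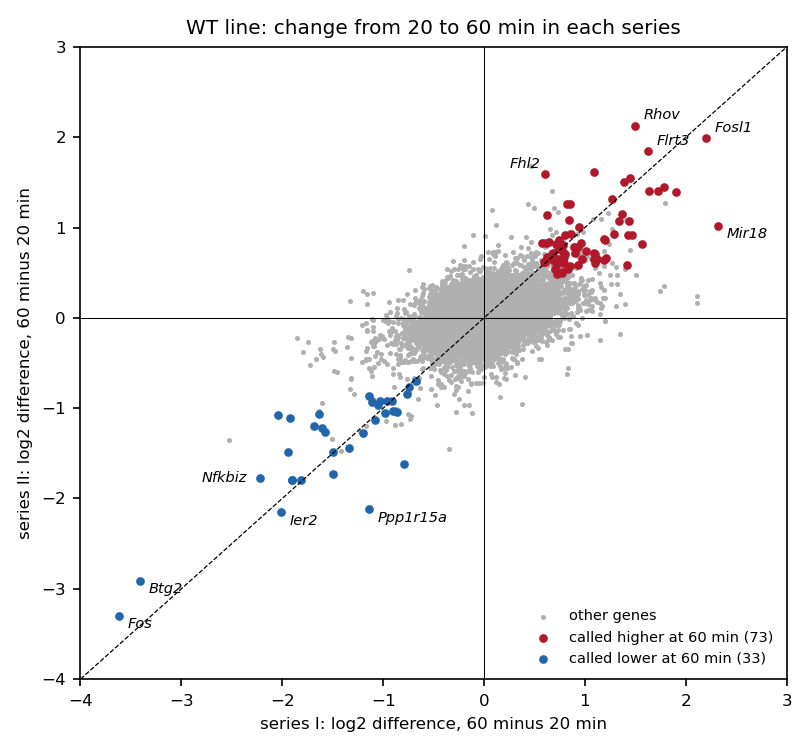
Log2 difference between 60 and 20 min in the WT line, series I on the horizontal and series II on the vertical axis, 1 point per gene. Red points are the 73 rises and blue points the 33 falls, and the dashed line marks equal change. Fos and Btg2 lie farthest down the diagonal and Fosl1 and Rhov far up it, while Mir18 moved more in series I and Fhl2 more in series II.

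The number of calls depended on how the pairing was used and on single arrays. Without the series number in the model, 23 of the 106 genes were called (13 rises, 0.0652%, and 10 falls, 0.0502%). Leaving out 1 compared array gave 18 genes (without 20 min series I), 23 (without 20 min series II), 33 (without 60 min series I) or 523 (without 60 min series II). At the looser cutoff that the series text names, an unadjusted p under 0.05 and a fold above 1.5, 357 genes were past (1.79%). The calls of 13 genes were kept in each of these 4 omissions: the falls of Fos, Btg2, Ier2, Nfkbiz, Ppp1r15a, Il10ra and Bcl6, and the rises of Flrt3, Gpat3, Stk40, Vcl, Plaur and Nab2. Of these, 12 were also kept without the series number, Il10ra being the exception (adjusted p = 0.089). The other 11 calls kept without the series number were the rises of Fosl1, Rhov, Gprc5a, Klf7, Tbcc, Set and Lonrf1 and the falls of Prdm1, Slc25a2, Abhd18 and Dnajb6. The remaining calls below were lost without it. At the other end, 9 called genes were kept in no omission.

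AP-1 is the dimeric transcription factor formed by Fos and Jun proteins. Of 8 measured genes in its list, 2 fell and 1 rose. Fos stood at 7.20 and 8.55 (series I and II) in starved cells, 11.61 and 11.62 at 20 min, 7.99 and 8.32 at 60 min and 8.49 and 9.16 at 180 min. Both 60 min arrays lay between the 2 starved arrays. Within series, the 60 min array was above its starved value in series I and below it in series II. The difference between 60 and 20 min was -3.46 on the log2 scale (SE 0.27, n = 2 pairs), 11-fold lower, with a limma adjusted p of 0.000183. Jun went from 11.51 and 11.85 to 10.48 and 10.93 (-0.98, SE 0.14, adjusted p = 0.00836). It remained above its starved values of 9.96 and 10.36 in both 60 min arrays. Fosl1, which encodes the late AP-1 subunit FRA-1, ran the other way: 6.31 and 6.66 at 0 min, 8.51 and 7.89 at 20 min and 10.71 and 9.88 at 60 min, a rise of 2.10 (SE 0.30, 4.27-fold, adjusted p = 0.00874). Fosb (9.76 and 9.67, then 8.44 and 8.99) and Junb (9.63 and 9.92, then 8.76 and 8.91) were lower in both series but not called, with adjusted p of 0.243 and 0.0752. Fosb stood at 5.89 and 5.64 at 180 min, next to 5.80 and 5.95 in starved cells. The Jun call was lost without either 20 min array or without the 60 min array of series I (adjusted p up to 0.145), and the Fosl1 call without the 20 min array of series II or the 60 min array of series I (up to 0.193) or with WT arrays alone.

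**Figure D2:**
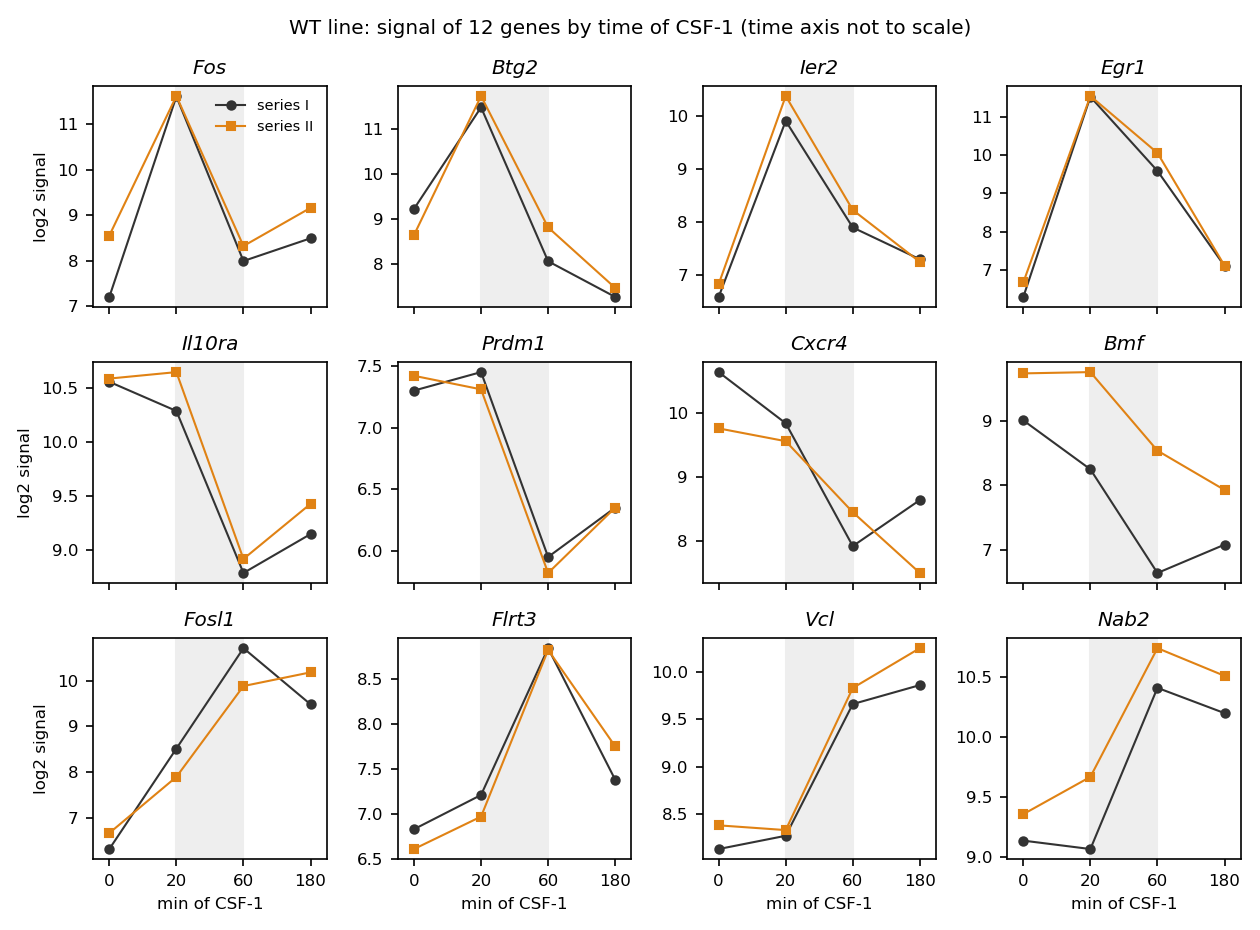
Log2 signal (vertical axis, scaled per panel) of 12 genes in the WT line at 0, 20, 60 and 180 min of CSF-1 (horizontal axis, not to scale), series I in black circles and series II in orange squares. The shaded band is the interval from 20 to 60 min. Top row genes peak at 20 min, middle row genes stay near or below their starved level at 20 min and fall by 60 min, and bottom row genes climb by 60 min.

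EGR zinc finger factors are immediate early activators, and the NAB proteins bind them and repress their targets. Of 6 measured genes, Egr1 fell and Nab2 rose. Egr1 was at 6.29 and 6.67 in starved cells, 11.53 and 11.55 at 20 min and 9.59 and 10.06 at 60 min (-1.72, SE 0.20, 3.28-fold lower, adjusted p = 0.00241). At 60 min it was thus still far above the starved arrays, and it read 7.10 and 7.11 at 180 min. The Egr1 call was lost without the 20 min array of series I (adjusted p = 0.0683) and without the series number (0.0718). Nab2 went from 9.07 and 9.67 at 20 min, close to its starved 9.14 and 9.36, to 10.41 and 10.74 at 60 min (1.21, SE 0.11, adjusted p = 0.000426). Egr2 had the larger mean difference, -1.94, but its pairs disagreed in size (11.42 to 8.89 and 11.36 to 10.01) and it was not called (adjusted p = 0.0633). Egr3 moved down in series I (7.72 to 7.30) and up in series II (8.03 to 8.44).

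The NR4A orphan nuclear receptors, also immediate early genes, gave no call among 3 measured. Nr4a1 was nearly as high at 60 min (10.88 and 11.16) as at 20 min (11.39 and 11.61), against 6.44 and 7.33 in starved cells and 7.20 and 7.57 at 180 min. Its difference between 60 and 20 min was -0.48 (SE 0.28, adjusted p = 0.61). Nr4a2 read 8.67 and 8.80, then 9.18 and 8.97, and Nr4a3 stayed between 4.88 and 5.4 in these 4 arrays. Among 8 Kruppel-like factors, Klf7 and Klf10 rose. Klf7 went from 9.04 and 8.81 to 10.13 and 10.43 (1.36, SE 0.18, adjusted p = 0.00666), and Klf10 from 9.85 and 10.21 to 11.04 and 11.08 (1.03, SE 0.19, adjusted p = 0.0365). Klf2 was lower in both series (9.97 to 8.33 and 10.42 to 9.39) and not called (adjusted p = 0.0908). Klf10 was kept in no omission (adjusted p up to 0.465), and Klf7 was lost without the 20 min array of series II or the 60 min array of series I (up to 0.127).

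Among 17 other immediate early genes, 3 fell and none rose. Btg2, an antiproliferative protein that binds the deadenylase complex, stood at 9.22 and 8.64 at 0 min, 11.47 and 11.72 at 20 min, 8.06 and 8.81 at 60 min and 7.27 and 7.47 at 180 min. It fell by 3.16 on the log2 scale (SE 0.32, 8.94-fold lower, adjusted p = 0.000935), second in size to Fos among all genes, and by 180 min both arrays were below the starved ones. Ier2, a nuclear immediate early protein, went from 9.91 and 10.38 to 7.90 and 8.23 (-2.08, SE 0.16, adjusted p = 0.000183), which was above its starved 6.59 and 6.83. Sgk1, a serum-induced kinase, went from 9.04 and 8.44 to 7.70 and 7.0 (-1.39, SE 0.21, adjusted p = 0.00969), below its starved 8.29 and 8.31. The Sgk1 call was lost without either 20 min array (adjusted p up to 0.172). Ier3 (10.68 and 10.77, then 9.86 and 9.59) was not called (adjusted p = 0.123). Ppp1r15a directs a phosphatase to the translation factor eIF2alpha and was the 1 gene called among 12 of the amino acid stress list. It went from 8.65 and 9.42 to 7.51 and 7.30 (-1.63, SE 0.17, adjusted p = 0.00109), next to 6.67 and 6.99 in starved cells.

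MAP kinase phosphatases remove the activating phosphates from ERK, JNK and p38, and of 11 measured 3 rose and 1 fell. Dusp1, an early member, peaked at 12.50 and 13.07 at 20 min and was at 10.81 and 11.87 at 60 min (-1.45, SE 0.20, 2.72-fold lower, adjusted p = 0.00711), against 9.36 and 10.51 in starved cells. Dusp4 rose from 6.40 and 6.26 to 8.30 and 7.65 (1.65, SE 0.26, 3.13-fold, adjusted p = 0.0141). Dusp10, which acts on JNK and p38, rose from 7.66 and 7.25 to 9.09 and 8.17 (1.18, SE 0.14, adjusted p = 0.00241). Dusp16, likewise a JNK and p38 phosphatase, rose from 7.90 and 7.94 to 8.72 and 9.20 (1.04, SE 0.18, adjusted p = 0.0229). The 4 called genes thus split: Dusp1 was lower at 60 min and the others were higher. Each had the same sign in both series, as did every other called gene. Dusp5 was higher in both series (9.66 to 10.68 and 10.06 to 10.74) without a call (adjusted p = 0.266), and the ERK phosphatase Dusp6 differed more between series than between times (10.89 and 9.14, then 10.57 and 9.22). Each of the 4 calls was lost in at least 1 omission, with adjusted p up to 0.156 for Dusp1 (without 20 min series I or 60 min series I), 0.231 for Dusp4 (either 20 min array or 60 min series I), 0.0743 for Dusp10 (20 min series I) and 0.324 for Dusp16 (either 20 min array or 60 min series II). The Dusp16 call was also lost with WT arrays alone. Of 9 Sprouty, Spred and related brakes none was called, with a median difference of 0.41. Spry2 read 5.39 and 5.41, then 5.48 and 6.14. None of 12 ETS factors was called (median 0.08).

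Zfp36 encodes tristetraprolin, which binds AU-rich elements and promotes mRNA decay. It went from 11.57 and 11.77 to 9.76 and 9.97 (-1.81, SE 0.24, 3.49-fold lower, adjusted p = 0.00524), near its starved 9.50 and 9.76, and was the 1 call among 8 decay factors. Nfkbiz, a nuclear inhibitor and cofactor of NF-kappaB, was the 1 call among 13 NF-kappaB genes. It went from 9.57 and 8.88 to 7.35 and 7.11 (-2.0, SE 0.20, adjusted p = 0.000757), back at its starved 7.26 and 7.21, whereas Nfkbia (10.39 and 10.82, then 11.06 and 11.31) was higher in both series without a call. Socs3, a cytokine receptor inhibitor, went from 11.42 and 11.09 to 9.38 and 10.01 (-1.56, SE 0.30, adjusted p = 0.0467). Il10ra, the ligand-binding chain of the IL-10 receptor, followed another course: 10.56 and 10.59 at 0 min, 10.29 and 10.65 at 20 min, 8.79 and 8.92 at 60 min and 9.15 and 9.43 at 180 min. It fell by 1.62 on the log2 scale (SE 0.15, 3.06-fold lower, adjusted p = 0.000426), starting from the starved level. Socs3 and Il10ra were the 2 calls among 11 genes of the SOCS and IL-10 list. Zfp36 was lost without either 20 min array (adjusted p up to 0.143). Socs3 was lost without either 20 min array or the 60 min array of series I (up to 0.539), and under quantile normalization.

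The start regions of several of these genes hold known early response motifs. The CRE, bound by CREB family factors, is written TGACGTCA, and the SRF CArG box, bound by serum response factor, was searched by its usual definition. RefSeq promoter windows (GRCm38.p6, 250 bases before to 50 after a start) were found for 24 of the 33 falls (34 windows), 56 of the 73 rises (68 windows) and 15563 of the 19938 genes (19116 windows), and both strands were searched. No window was found for Egr1, Ier2, Nfkbiz, Osm and Il10ra, so these falls were not searched. Only full matches to a motif were counted. A CRE was present in 3 windows of the falls (8.82%: Btg2, Dusp1, Ppp1r15a), 3 of the rises (4.41%) and 2.37% of all windows. A CArG box was present in 1 window of the falls (2.94%: Zfp36), 4 of the rises (5.88%: Vcl, Rhoj and both windows of Fhl2) and 1.41% of all. Counted per gene with a window, a CRE was present in 12.5% of the falls, 5.36% of the rises and 2.72% of all genes. For the CArG box these shares of genes were 4.17%, 5.36% and 1.63%. For the AP-1 motif TGANTCA, whose matches cannot overlap a CRE, the shares were 2.94% of fall windows, 4.41% of rise windows and 6.88% of all. The EGR motif GCGTGGGCG was in none of the called genes' windows and in 0.91% of all, and kappaB motifs, 1 of which overlaps the CArG box of Vcl, were in 5.88%, 11.8% and 9.54%. With so few windows, these shares describe letters in a short stretch and do not show binding. Shown are the 250 bases before the start for 5 genes, 5′ to 3′ on the gene's strand, with the CRE or CArG box in capitals, so that its distance from the start (the end of each line) can be read. Btg2 lies at chr1:134079156-134079405 (minus strand), Dusp1 at chr17:26508473-26508722 (minus), Ppp1r15a at chr7:45526269-45526518 (minus), Zfp36 at chr7:28379229-28379478 (minus) and Vcl at chr14:20929148-20929397 (plus). The motif ends 158, 135, 4, 48 and 217 bases before the start in this order.
Btg2: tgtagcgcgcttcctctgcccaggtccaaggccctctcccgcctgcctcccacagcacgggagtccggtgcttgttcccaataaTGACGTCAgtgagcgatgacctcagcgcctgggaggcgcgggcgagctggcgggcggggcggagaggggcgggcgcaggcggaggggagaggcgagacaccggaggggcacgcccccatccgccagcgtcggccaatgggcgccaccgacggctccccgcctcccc
Dusp1: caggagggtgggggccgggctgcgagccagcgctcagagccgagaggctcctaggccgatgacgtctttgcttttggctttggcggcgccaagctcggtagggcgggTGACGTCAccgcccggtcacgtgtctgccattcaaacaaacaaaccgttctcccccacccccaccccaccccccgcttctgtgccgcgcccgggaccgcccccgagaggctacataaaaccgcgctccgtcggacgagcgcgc
Ppp1r15a: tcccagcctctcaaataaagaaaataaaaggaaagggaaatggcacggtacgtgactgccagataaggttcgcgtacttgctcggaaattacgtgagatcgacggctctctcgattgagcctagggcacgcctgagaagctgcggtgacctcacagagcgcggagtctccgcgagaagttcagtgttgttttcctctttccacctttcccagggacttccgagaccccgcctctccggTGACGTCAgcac
Zfp36: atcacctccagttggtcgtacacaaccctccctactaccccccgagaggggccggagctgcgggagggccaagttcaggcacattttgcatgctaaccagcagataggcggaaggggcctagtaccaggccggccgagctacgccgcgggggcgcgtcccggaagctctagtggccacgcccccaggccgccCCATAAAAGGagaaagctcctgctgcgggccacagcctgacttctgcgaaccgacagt
Vcl: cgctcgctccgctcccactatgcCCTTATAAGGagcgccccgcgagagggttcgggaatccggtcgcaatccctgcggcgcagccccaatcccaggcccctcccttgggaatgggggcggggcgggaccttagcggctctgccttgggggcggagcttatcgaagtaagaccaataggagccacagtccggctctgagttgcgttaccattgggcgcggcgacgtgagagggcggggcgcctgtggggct

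Secreted inflammatory mediators gave few calls. Of 13 cytokines, Il1b and Osm fell and none rose. Il1b went from 9.72 and 10.06 to 8.08 and 9.0 (-1.35, SE 0.24, adjusted p = 0.0285), still above its starved 5.80 and 6.46. Osm, which encodes oncostatin M, went from 10.77 and 9.78 to 9.19 and 8.52 (-1.42, SE 0.17, adjusted p = 0.00318), above its starved 7.14 and 7.06. Tnf was not called (10.53 and 10.64, then 10.78 and 10.59, against 8.62 and 9.40 in starved cells), and Il1rn, the IL-1 receptor antagonist, read 10.85 and 10.76, then 11.09 and 11.20. None of 19 chemokines was called: Ccl2 was at 12.76 and 11.68 at 20 min and 12.81 and 11.56 at 60 min, while Cxcl2 (11.38 and 10.01, then 9.92 and 9.41) had an adjusted p of 0.413. Ptgs2, the inducible cyclooxygenase, was lower in both series (12.0 to 11.03 and 10.43 to 9.29), with an adjusted p of 0.312, and stayed far above its starved 6.37 and 6.24. The Il1b call was lost without either 20 min array or the 60 min array of series I (adjusted p up to 0.429), and the Osm call without the 20 min array of series I (0.0587).

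Part of the falls concerned genes that 20 min of CSF-1 had left near or below the starved level, here Cxcr4, Prdm1, Bcl6 and Clec2d. Of these, Cxcr4 was already lower at 20 min in both series. Cxcr4, the CXCL12 receptor and 1 call among 6 chemoattractant receptors, read 10.64 and 9.76 at 0 min, 9.84 and 9.56 at 20 min and 7.92 and 8.45 at 60 min (-1.52, SE 0.30, adjusted p = 0.0489). Prdm1, the repressor BLIMP-1, read 7.30 and 7.42, then 7.45 and 7.31, then 5.95 and 5.82 (-1.50, SE 0.19, adjusted p = 0.005). Bcl6, another repressor, read 9.0 and 8.83, then 9.13 and 9.12, then 8.23 and 8.09 (-0.97, SE 0.10, adjusted p = 0.00118), and was at 9.43 and 9.33 at 180 min. In these 3 genes both 60 min arrays lay below all 4 earlier arrays. Prdm1 and Bcl6 were the 2 falls among 19 other transcription regulators. Clec2d, a C-type lectin-related protein, read 10.16 and 10.34 at 20 min and 8.26 and 8.54 at 60 min (-1.85, SE 0.31, adjusted p = 0.0229), against 10.37 and 9.96 in starved cells. Rgs2, which limits Gq signalling and was the 1 call among 7 RGS genes, read 11.86 and 11.54, then 10.78 and 10.41 (-1.11, SE 0.14, adjusted p = 0.005). Cxcr4 and Clec2d were lost without either 20 min array or the 60 min array of series I (adjusted p up to 0.488 and 0.322), Rgs2 in the same omissions (up to 0.11) and Prdm1 without either 20 min array (up to 0.119). Cxcr4 was also lost with the filter on low signal, with averaged probe sets and with WT arrays alone.

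Starvation-linked genes lay to the negative side with few calls. Of 18 genes in the FOXO and starvation list, Cdkn1b fell, 17 had a negative difference, and the median was -0.53 against -0.005 over all genes. The list was chosen with earlier results of these data known and holds genes linked to growth factor withdrawal, so this lean is not independent evidence. Cdkn1b, the cell cycle inhibitor p27, went from 9.81 and 10.26 to 8.85 and 9.34 (-0.94, SE 0.18, adjusted p = 0.0433). It was lost without either 20 min array or the 60 min array of series I (adjusted p up to 0.518), with averaged probe sets and with WT arrays alone. Bmf, a proapoptotic BH3-only protein outside that list, went from 8.25 and 9.76 to 6.64 and 8.54 (-1.42, SE 0.23, adjusted p = 0.0186), with the series further apart than the times. Mylip, a ubiquitin ligase for the LDL receptor and the 1 call among 8 LXR targets, went from 7.89 and 9.15 to 6.69 and 7.87 (-1.24, SE 0.16, adjusted p = 0.005). Bmf was lost without either 20 min array or the 60 min array of series I (up to 0.324), and with WT arrays alone. Mylip was lost without the 20 min array of series II or the 60 min array of series I (up to 0.123). Id3, an inhibitor of basic helix-loop-helix factors, fell from 10.70 and 11.32 to 9.65 and 10.36 (-1.01, SE 0.15, adjusted p = 0.00916), while its relative Id1 stayed high (10.87 and 11.82, then 11.47 and 11.70, against 7.67 and 9.33 in starved cells). Id3 was the 1 call among 6 ID and inhibitory SMAD genes, and was lost without either 20 min array or the 60 min array of series I (up to 0.169). The other large falls were Gdap10 (-1.85) and Slc25a2 (-1.21), a mitochondrial ornithine carrier with low signals of 5.98 and 6.44 at 20 min. Gdap10 was lost without the 20 min array of series I (adjusted p = 0.0851), and Slc25a2 without that of series II (0.12).

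Vcl, the focal adhesion protein vinculin, went from 8.27 and 8.33 at 20 min, level with its starved 8.13 and 8.38, to 9.66 and 9.83 at 60 min (1.45, SE 0.12, 2.72-fold, adjusted p = 0.000183) and was at 9.86 and 10.25 at 180 min. Fhl2, a LIM-domain protein, went from 5.44 and 6.25 to 6.04 and 7.84 (1.10, SE 0.21, adjusted p = 0.0458), with overlapping groups. Vcl and Fhl2 were the 2 calls among 9 actin cytoskeleton genes known as SRF targets. Rhov went from 6.81 and 7.0 to 8.31 and 9.13 (1.82, SE 0.21, 3.52-fold, adjusted p = 0.00241), and Flrt3, a transmembrane adhesion protein, from 7.21 and 6.97 to 8.84 and 8.82 (1.74, SE 0.19, 3.34-fold, adjusted p = 0.00161). Both had come down at 180 min, to 7.73 and 7.41 for Rhov and 7.38 and 7.75 for Flrt3. Plaur, the urokinase receptor and 1 call among 7 genes of the urokinase system, climbed in steps: 8.90 and 8.5 at 0 min, 9.79 and 9.58 at 20 min, 11.06 and 10.90 at 60 min (1.30, SE 0.13, adjusted p = 0.000757). Tnfrsf12a, the TWEAK receptor, went from 8.12 and 8.62 to 9.90 and 10.07 (1.62, SE 0.20, adjusted p = 0.00357). Rhov was lost without the 20 min array of series I (adjusted p = 0.0604), Tnfrsf12a without either 20 min array or the 60 min array of series I (up to 0.0838) and Fhl2 without either 20 min array or the 60 min array of series II (up to 0.506). Fhl2 was also lost with WT arrays alone.

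Further rises fell into metabolism, signalling and transcription. Gpat3, which catalyses the first step of glycerolipid synthesis, went from 7.89 and 7.83 to 9.61 and 9.24 (1.57, SE 0.12, 2.96-fold, adjusted p = 0.000183). Slc2a1, the glucose transporter GLUT1 and 1 call among 13 genes of glycolysis and hypoxia, went from 10.92 and 11.23 to 12.36 and 12.30 (1.26, SE 0.19, adjusted p = 0.0101). Stk40, a kinase-like protein, went from 7.91 and 8.20 to 9.36 and 9.75 (1.50, SE 0.13, adjusted p = 0.000368) and Gprc5a, an orphan G protein-coupled receptor, from 8.41 and 8.12 to 10.05 and 9.53 (1.53, SE 0.19, adjusted p = 0.00357). In each of these 4 genes the 2 groups did not overlap, as in 69 of the 73 rises, which were called on these same arrays. Snai1, the repressor Snail, went from 8.34 and 8.65 to 9.81 and 9.57 (1.20, SE 0.21, adjusted p = 0.0285), and Bhlhe40, a basic helix-loop-helix repressor, from 8.81 and 9.33 to 10.10 and 10.26 (1.11, SE 0.16, adjusted p = 0.00748). Hbegf, an EGF family ligand and the 1 call among 11 growth factors and receptors, had low signals of 5.69 and 5.52, then 6.78 and 6.17 (0.87, SE 0.15, adjusted p = 0.0229). Map2k3os, the opposite strand transcript of the MAP kinase kinase gene Map2k3, rose by 1.26, and Map2k3 itself, looked up for that reason, by 0.86. Slc2a1, Gprc5a, Snai1, Bhlhe40, Hbegf and Map2k3os were each lost without either 20 min array and without the 60 min array of series I, with adjusted p up to 0.177, 0.0889, 0.397, 0.156, 0.326 and 0.277. Snai1 and Hbegf were also lost with WT arrays alone.

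Primary transcripts of the miR-17 to miR-92 cluster were among the rises, read by probe sets for Mir18 and for the cluster's host gene Mir17hg. Mir18 went from 4.05 and 4.81 to 6.37 and 5.83 (1.67, SE 0.30, 3.18-fold, adjusted p = 0.0344) and Mir17hg from 4.44 and 4.60 to 6.01 and 5.42 (1.20, SE 0.22, adjusted p = 0.0396). These probe sets share a transcript, their signals were low, and the array does not read the mature miRNA. Mirlet7e, a let-7 locus picked out after its values were seen, went from 6.76 and 7.01 to 7.61 and 7.58 (0.71, SE 0.11, adjusted p = 0.0111), where its starved arrays also stood (7.45 and 7.46). The mature RNAs that the 2 loci encode are given from RefSeq (GRCm38.p6) with the seed, bases 2 to 8, in capitals, to show that the seeds differ. They lie at chr14:115043867-115043889 and chr17:17830366-17830387, both on the plus strand.
mmu-miR-18a-5p: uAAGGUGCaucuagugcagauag
mmu-let-7e-5p: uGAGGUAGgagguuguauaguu
The Mir18 and Mir17hg calls were lost without either 20 min array or the 60 min array of series I (adjusted p up to 0.44 and 0.416), under quantile normalization and with WT arrays alone. The Mirlet7e call was lost without the 20 min array or the 60 min array of series I, and with WT arrays alone.

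The remaining calls were smaller. The rises nearest the fold threshold were Kcna3 (1.52-fold), Olfr1461 (1.52-fold), 9130019O22Rik (1.53-fold), Mdm2 (1.54-fold), a ubiquitin ligase for p53, and Blcap (1.55-fold). Olfr1461, an olfactory receptor, had signals from 3.43 to 4.15, under the 20th percentile of all genes in both groups. The falls nearest the threshold were Dnajb6 (1.61-fold lower), Arhgef39 (1.68), Abhd18 (1.74), Mir687 (1.89) and Cdkn1b (1.92). Each of these 10 calls was lost without either 20 min array and without the 60 min array of series I, with adjusted p up to 0.59.

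The lists of this paragraph, most of them growth-related, held no call between 20 and 60 min. A change already complete at 20 min would not show in this comparison. None of 21 ribosome biogenesis genes was called. Their median difference was 0.37, made up of 0.65 in series I and 0.08 in series II, and 20 of the 21 differences were positive. Myc read 10.96 and 9.27, then 11.08 and 10.30 (0.58, SE 0.24, adjusted p = 0.431). Odc1, the rate-limiting enzyme of polyamine synthesis, read 9.95 and 9.43, then 10.93 and 10.06 (adjusted p = 0.459), and Arg1, which makes its substrate ornithine, 7.87 and 8.06, then 8.94 and 8.72 (adjusted p = 0.088). None of 10 MYC network genes, 11 G1 cell cycle genes, 7 polyamine and arginine genes, 8 prostaglandin genes or 9 type I interferon response genes was called.

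**Figure D3:**
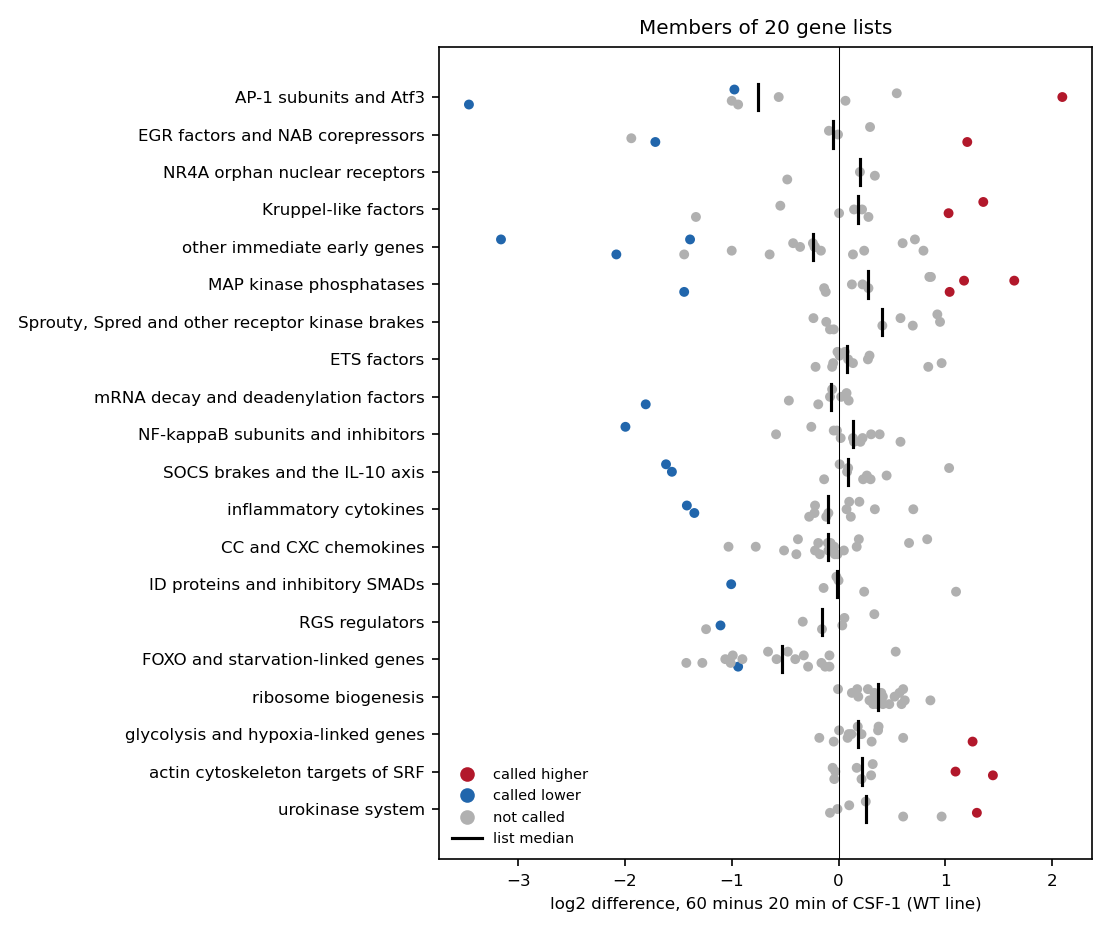
Log2 difference between 60 and 20 min in the WT line (horizontal axis) for the measured members of 20 gene lists (vertical axis), 1 point per gene, with the list median as a black bar. Red and blue points are called rises and falls and grey points are not called. Early factors spread to both sides, the FOXO and starvation list sits at a median of -0.53 and the ribosome biogenesis list at 0.37 without a call.

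The same interval in the Y721F line has 4 arrays of its own, but each gene's spread was estimated from all 16 time course arrays. Calls in the 2 lines are thus not independent. The Y721F line gave 36 rises (0.181%) and 12 falls (0.0602%). Of the 73 WT rises, 23 were also called there (31.5% of the WT list and 63.9% of the Y721F list), as were 12 of the 33 WT falls (36.4% and 100%). The WT rises had a median of 0.57 in Y721F and the WT falls -0.80, and 68 of the 73 and 31 of the 33 had a difference of the WT sign in both Y721F series. Over all genes, 21.9% were higher and 27.4% lower in both Y721F series. Fos went from 11.36 and 11.29 to 8.53 and 8.18 in Y721F (-2.97, adjusted p = 0.000927), and Rhov from 6.48 and 6.81 to 8.65 and 8.88 (2.12, adjusted p = 0.00152). For Il1b, the Y721F arrays were low at both times (5.94 and 7.02, then 6.65 and 6.49), a difference of 0.09 beside -1.35 in WT. Dusp1 differed by -0.41 in Y721F beside -1.45 in WT, and Nfkbiz by -1.0 beside -2.0, neither called in Y721F. The test of the difference between the lines called no gene (0% of 19938, with 716 at an unadjusted limma p under 0.05), so none of these contrasts is shown to differ. The 3 lowest p-values of that test belonged to Kazald1 (-0.82, Y721F minus WT), Snai1 (-1.63) and Fam110c (-1.12), with adjusted p of 0.973. The Y721F counts also depended on the series number (10 calls without it) and on single arrays: 5 calls without 20 min series I, 511 without 20 min series II, 13 without 60 min series I and 84 without 60 min series II.

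In the separate steady-state arrays of the WT line, 609 genes (3.05%) were higher and 724 (3.63%) lower in cells grown in CSF-1 than in starved cells. Of the 73 genes that rose between 20 and 60 min, 14 were higher in grown cells (19.2% of them, 2.30% of the 609) and none was called lower. Of the 33 falls, 11 were lower in grown cells (33.3%, and 1.52% of the 724) and none was called higher. Slc2a1 stood at 10.67 and 10.31 in starved and 12.12 and 12.51 in grown cells (1.83, adjusted p = 0.00929), Fosl1 at 6.85 and 6.54 against 8.80 and 8.12 (1.77, adjusted p = 0.000639) and Dusp4 at 5.65 and 6.10 against 7.66 and 8.14 (2.03, adjusted p = 0.00179). The falls lower in grown cells were Bmf, Btg2, Clec2d, Cxcr4, Il10ra, Map3k8, Mylip, Prdm1, Rgs2, Tagap and Tent5a. Cxcr4 had the widest gap among them, 11.26 and 10.98 in starved against 7.55 and 8.48 in grown cells (-3.11, adjusted p = 0.000289). By contrast Fos (8.18 and 9.04 against 7.88 and 9.08) and Ier2 (7.54 and 7.54 against 8.53 and 8.07) were not called, nor was Vcl (8.34 and 8.44 against 8.41 and 8.52). Leaving out the starved or the grown WT array of a series is the same fit, since only the pair of the other series then gives the difference. The count of calls was lower with the series II pair alone and higher with the series I pair alone.

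**Figure D4:**
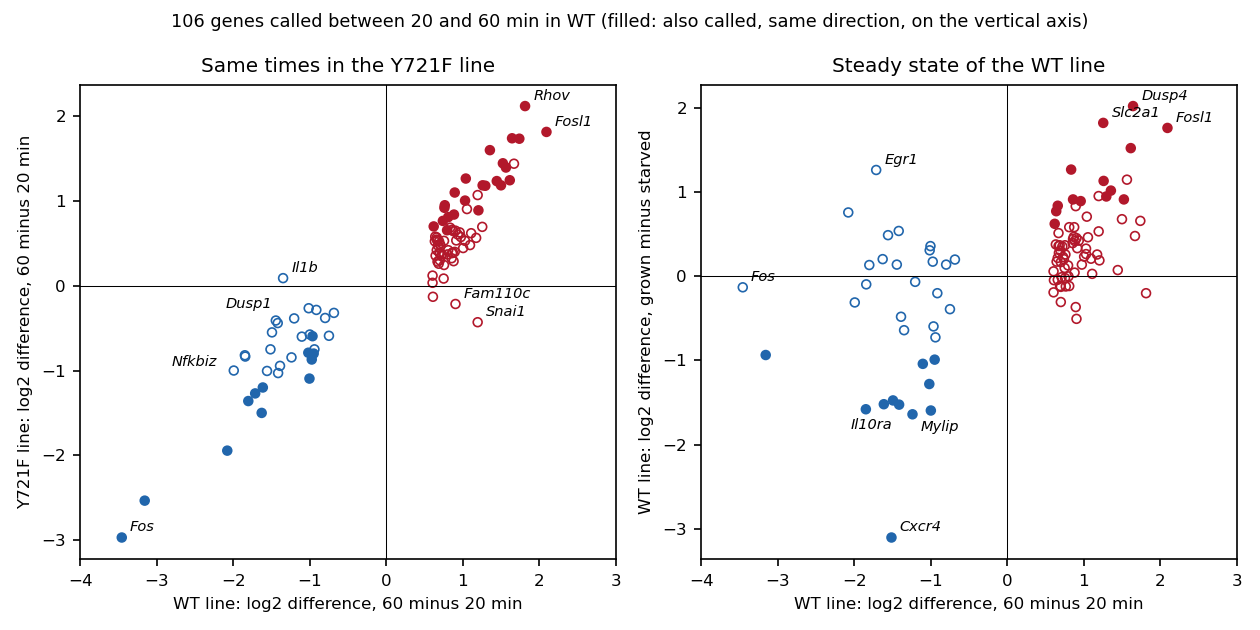
The 106 genes called in the WT line, placed by their log2 difference between 60 and 20 min (horizontal axes). The vertical axes give the same difference in the Y721F line (left) and grown minus starved WT cells (right), with rises in red, falls in blue, and filled points also called in the same direction there. On the left 23 rises and 12 falls are filled, and on the right 14 rises and 11 falls.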

How the data were processed

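The values used are those of the deposited series matrix, 1 log2 signal for each of 35556 probe sets and 32 arrays. Their range identified the scale as log2, since no unit is stated. How background, summarization and normalization were handled before deposition, and on which build, is not stated. Array medians lay between 5.97 and 6.22. Of the probe sets, 21789 carried 1 gene symbol, 1621 several and 12146 none in the platform annotation. Those with 1 symbol gave 19938 genes, the probe set with the highest mean standing for each of 999 genes with several.

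The 16 time course arrays were fitted together with limma 3.58.1 (R 4.3.3), with a mean for each of 8 groups and the series number as a block within each line. This left 6 residual and 5.75 prior degrees of freedom. The steady-state arrays had a fit of their own. Genes were called at a Benjamini-Hochberg adjusted p under 0.05 over all genes and a fold above 1.5. The numbers I and II came from the sample titles and were taken to pair the samples, since deviations of same-numbered WT arrays from their group means correlated at 0.487 to 0.734 for each of the pairs of times (Y721F 0.353 to 0.648). No arrays were identical.

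Named genes were the 20 largest called falls and rises with one sign in both series, up to 4 called members per list, 34 preset genes, the calls nearest the fold threshold and the 3 lowest p-values between lines. The members and the 36 gene lists (361 of 380 genes measured) were chosen with earlier results of these data known. On simulated data of this design over 19938 genes, the blocked fit recovered 87% of genes changed by 1 on the log2 scale. It recovered 99% of those changed by 2, with 6 false calls. Without the block these shares were 63% and 91%. The simulated noise was alike in all arrays and held a series effect of the form the fit assumes. In the data the series differed in spread (SD of differences over genes 0.291 in I, 0.204 in II). The simulation therefore does not give the number of false calls in the data. The number of arrays limits the precision.

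Alternatives were no block, quantile normalization, a filter at the 20th percentile of signal, mean probe sets, eBayes with trend and robust options, WT arrays alone, the series text's cutoff (unadjusted p) and each array left out. Motifs were searched in RefSeq promoter windows, used only for their own build, GRCm38.p6.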

Additional observations from a re-analysis of the deposited data

Results flagged for a closer look

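Of the 73 WT rises, 2 were lower at 60 min in both Y721F series, and of the 33 WT falls 0 were higher in both. Over all genes, 27.4% were lower and 21.9% higher in both Y721F series. Genes not called in WT were not searched for opposite changes. Snai1, the repressor Snail, rose by 1.20 in WT and was -0.43 in Y721F, a difference of -1.63 (Y721F minus WT). Fam110c, called higher in WT by 0.91 at low signals (5.96 and 5.80, then 7.05 and 6.52), was -0.22 in Y721F, a difference of -1.12. The limma test of the difference between lines called neither (adjusted p = 0.973). The Fam110c call in WT was lost without the series block (adjusted p = 0.286), with WT arrays alone, without the 20 min array of series I (0.172) or II (0.0998) and without the 60 min array of series I (0.156). The Snai1 call was lost in the same settings.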

How the results depend on the processing

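No called named gene changed direction under an alternative. The differences of 8 named genes that were not called changed sign. Csf1r was at 0.023 under quantile normalization, and with 1 array left out the log2 differences ran from -0.117 to 0.037 for Csf1r, -0.318 to 0.248 for Ccl2, -0.513 to 0.503 for Egr3, -0.338 to 0.538 for Tnf, -0.415 to 0.175 for Dusp6, -0.01 to 0.69 for Nr4a2, -0.02 to 0.42 for Nr4a3 and -0.10 to 0.58 for Id1. The 106 calls between 20 and 60 min in WT became 23 without the series block, 357 at the series text's cutoff (1.79% of genes) and 18 to 523 with 1 array left out. The total stayed within 1.5 times of 106 under quantile normalization (88), the filter (98), mean probe sets (98), trend and robust options (123) and WT arrays alone (71, of which 58 were among the 106). The split of 73 rises and 33 falls was less stable: 55 and 33 under quantile normalization and 37 and 34 with WT arrays alone. It was 67 and 31 with the filter, 66 and 32 with mean probe sets and 86 and 37 with trend and robust options. The 48 calls in Y721F became 10 without the block and 5 to 511 with 1 array left out. The difference between lines stayed at 0 calls without the block (281 at an unadjusted limma p under 0.05) and gave 0 to 2 with 1 array left out. The 1333 steady-state calls became 1060 without the block and 199 to 1637 with 1 array left out. Of 82 named genes, 58 were called and 24 were not. Of the 58 calls, 38 were lost without the block, 8 under quantile normalization, 15 with WT arrays alone (1 other gene gained a call), 3 with mean probe sets and none with trend and robust options. With the 20 min array of series I or II or the 60 min array of series I or II left out, 41, 39, 34 and 4 were lost. The filter took 2 named genes below the signal limit, and 2 of the other 80 lost their call. With 1 array left out, a group of 1 array is assumed to vary like the others, and the cause of the high and low counts was not tested. With 2 arrays per group, small differences cannot be separated from array spread, and low signals such as those of Mir18, Hbegf and Olfr1461 limit what their changes can show.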
